A study of Mus musculus with 6 samples.

Results

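Hepcidin and the genes that handle iron were followed in cultured mouse hepatocytes as a set of 10 genes, named by symbol: *Hamp*, *Hamp2*, *Id1*, *Hfe*, *Tfr2*, *Trf*, *Tfrc*, *Slc40a1*, *Fth1* and *Ftl1*. They are 10 of the 57180 genes in the deposited table, and 9 of them passed the filter on low counts that 14151 genes passed in all. Primary hepatocytes came from male mice on a C57BL/6 background, 8 to 10 weeks old, and were cultured with 0.1 μM dexamethasone. The LOXP group carried floxed alleles of the gene for STING, an adaptor of innate immune signaling that responds to cytosolic DNA. The STINGLKO group came from crossing these mice with the Albumin-Cre line, whose Cre is driven by the albumin promoter. The study describes this knockout as specific to hepatocytes, and which liver cells lost the gene was not tested here. Both groups were exposed to palmitic acid (PA), a saturated fatty acid, at 0.1 mM for 24 h, and no library without PA was analysed here. RNA sequencing gave 3 libraries per group, LOXP1 to LOXP3 and KO1 to KO3. The sources do not say whether the libraries of a group came from separate mice, so p-values measure the spread between these libraries, which may be technical.

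Hepcidin is a peptide hormone that hepatocytes secrete. It binds ferroportin, the iron exporter encoded by *Slc40a1*, and causes its degradation, so that less iron leaves intestinal cells, macrophages and hepatocytes. Transcription of *Hamp* is driven by bone morphogenetic proteins (BMP) through SMAD factors, with HFE, transferrin receptor 2 and hemojuvelin as partners on the cell surface, and by interleukin-6 through STAT3. Inside cells, iron regulatory proteins bind hairpins called iron-responsive elements. They block translation of ferritin and ferroportin mRNA from the 5′ UTR and protect the mRNA of transferrin receptor 1 from the 3′ UTR.

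The sequences through which both kinds of control act are shown first. RefSeq promoters (GRCm38.p6, 250 bases before to 50 after the start) were listed for 7 of the 10 genes, 11 promoters in all. *Id1*, *Trf* and *Slc40a1* were not among the 7. The stretches below compare the promoter of hepcidin with that of its neighboring copy *Hamp2*, aligned without gaps. The capitals mark GGCGCC, the core of a BMP response element, and TTCNNNGAA, the motif of STAT factors, each searched on both strands. The *Hamp* stretch is chr7:30944033-30944152 and the *Hamp2* stretch chr7:30924182-30924301, both on the minus strand.

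Hamp: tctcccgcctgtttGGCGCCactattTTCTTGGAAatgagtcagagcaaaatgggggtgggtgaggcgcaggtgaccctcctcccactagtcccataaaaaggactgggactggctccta
Hamp2: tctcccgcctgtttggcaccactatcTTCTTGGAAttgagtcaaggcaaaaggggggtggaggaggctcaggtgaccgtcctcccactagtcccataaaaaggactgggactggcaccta

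The stretches were identical at 109 of 120 bases (90.8%). The *Hamp* promoter held GGCGCC from 109 to 104 bases before the start and TTCNNNGAA from 97 to 89 bases before it. *Hamp2* held the STAT motif alone, and 1 of the 11 substitutions, G18A, lies in the BMP response element core (*Hamp* base first, counted from 1 at the 5′ end of the stretch). Of all 32851 RefSeq promoters, 11.9% held GGCGCC, 8.3% held TTCNNNGAA and 0.645% held both. Among the other promoters of the set, GGCGCC was present in a promoter of *Tfrc*. The antioxidant response element core TGACNNNGC, which 12.4% of promoters held, was present in a promoter of *Hfe*. The E-box CACGTG was present in none of the 11 promoters of the 7 genes, against 7.15% of promoters. A match of letters is a description and not evidence of binding.

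Iron-responsive elements were searched in GENCODE M21 transcripts as a C, 5 bases of a stem, the loop CAGNGN and 5 bases that pair with the stem (A-U, G-C or G-U). The 17-base matches in the UTRs are printed with the loop in capitals, and positions count from the 5′ end of the gene's first-numbered transcript.

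Fth1 5′ UTR, 93 to 109: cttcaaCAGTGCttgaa
Ftl1 5′ UTR, 84 to 100: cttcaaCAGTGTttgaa
Slc40a1 5′ UTR, 96 to 112: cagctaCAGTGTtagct
Tfrc 3′ UTR, 3262 to 3278: cagtgaCAGAGTtcact
Tfrc 3′ UTR, 3321 to 3337: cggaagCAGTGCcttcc
Tfrc 3′ UTR, 3700 to 3716: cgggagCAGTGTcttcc
Tfrc 3′ UTR, 3765 to 3781: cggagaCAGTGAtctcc
Tfrc 3′ UTR, 3812 to 3828: cgggaaCAGTGTttccc

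These 4 genes held the pattern and the other 6 did not, while 4.5% of 21877 protein-coding genes held it somewhere in a transcript. *Fth1*, *Ftl1* and *Slc40a1* each had 1 match in the 5′ UTR, and *Tfrc* had 5 in the 3′ UTR. RNA sequencing measures the mRNA, so translation of the 3 genes with a 5′ element was not measured.

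The targeted gene was checked first. *Sting1*, which encodes STING, had 19, 16 and 23 counts in LOXP1 to LOXP3 and 24, 23 and 15 in KO1 to KO3, and its groups overlapped (log2 fold change -0.08, 95% interval -0.76 to 0.60, adjusted p = 0.883). Which exons Cre removes is not given in the sources used here, and a count over the whole gene need not show their loss. The counts do not separate the groups by their target, and "STINGLKO" below means the libraries labelled KO. The RT-PCR of this gene in the study is not analysed here. Libraries held 14726983 to 18536985 counted reads. All 16 hepatocyte markers were tested. At an adjusted p under 0.05, 11 fell and 1 rose in STINGLKO, against 11.6% and 11.5% of all genes tested. Their log2 fold changes ran from -3.30 for *Pck1* to 0.43 for *Hpd*, with a median of -0.45. *Ahsg* and *Cps1* fell by 1.31 and 1.24, and these 4 genes are named after their values were seen. The summed FPKM of the 16 (counts scaled to a length, not given, and to the counted reads of the library) ran from 10228 to 10608 in LOXP and from 8718 to 8911 in STINGLKO. *Alb*, serum albumin, was at 7493 to 7791 FPKM in LOXP and 6468 to 6584 in STINGLKO (log2 fold change -0.27, adjusted p = 0.00319). *Apoa1*, the main protein of high-density lipoprotein, changed by -0.09 (adjusted p = 0.232).

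Across the set, STINGLKO hepatocytes had less mRNA for hepcidin, transferrin and transferrin receptor 2, and more for the heavy chain of ferritin. The call for transferrin receptor 2 held in 6 of the 11 alternatives of the closing section, and the others held in all 11. At an adjusted p under 0.05, 3 of the 9 tested genes fell, against 11.6% of all genes tested, and 1 rose, against 11.5%. None met the study's 3 criteria, which 2.05% of tested genes met: an adjusted p under 0.05, a log2 fold change beyond 1 in either direction and, in at least 1 group, a mean FPKM over 1. No tested gene of the set had a log2 fold change beyond 1 with edgeR or with DESeq2, *Hamp* being nearest at -0.97 in both. In normalized counts, the groups were separate for 3 tested genes that were lower and 1 that was higher, against 20.3% and 20.4% of all genes. The median log2 fold change was -0.18 over the 9 genes and -0.0021 over all genes tested. In bulk RNA, fewer cells that express a gene and less RNA per cell cannot be told apart.

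**Figure D1:**
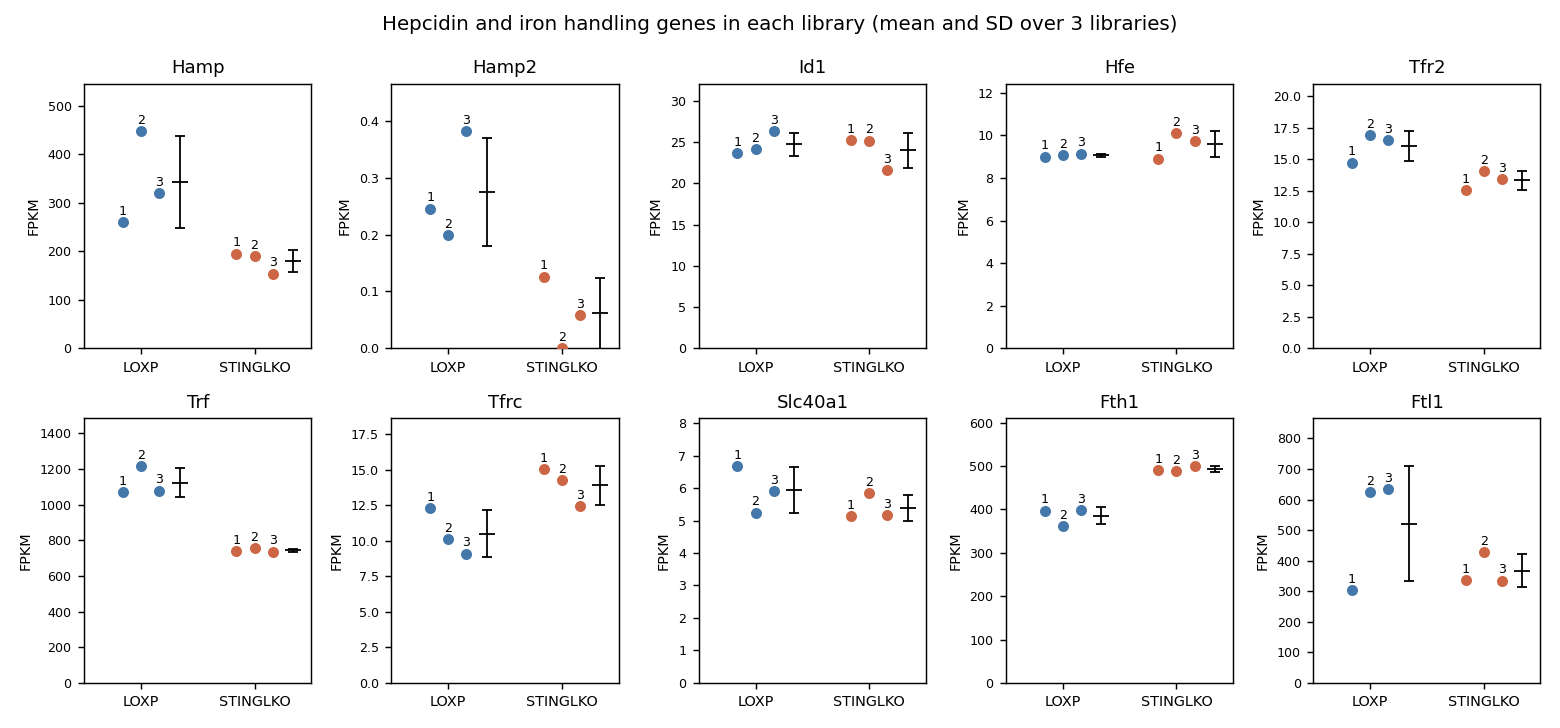
Level of each of the 10 genes in FPKM (vertical axes, from 0) in the 6 libraries. Points are libraries, numbered by replicate, and the bar beside them is the mean with its SD over 3 libraries. The STINGLKO points lie below all LOXP points for Hamp, Hamp2, Tfr2 and Trf and above them for Fth1 and, by a narrow gap between LOXP1 and KO3, for Tfrc, and LOXP1 lies apart from LOXP2 and LOXP3 for Ftl1.

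*Hamp* (ENSMUSG00000050440, GRCm39 chromosome 7 from 30641793 to 30643457), which encodes hepcidin, was at 260, 447 and 320 FPKM in LOXP1 to LOXP3 and at 195, 189 and 154 FPKM in KO1 to KO3. LOXP2 was the highest and LOXP1 the lowest of its group, and the groups did not overlap. Means were 342 ± 95.5 FPKM in LOXP and 179 ± 22.4 in STINGLKO (SD, n = 3 each). The level was 1.96-fold lower in STINGLKO (log2 fold change -0.97, SE 0.19, 95% interval -1.41 to -0.53, adjusted p = 0.00878 by edgeR's quasi-likelihood test). With 1 library left out, the log2 fold change ran from -1.14 to -0.72 and the adjusted p stayed at or under 0.0366.

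*Hamp2* (chromosome 7 from 30621797 to 30624106) encodes a second hepcidin-like peptide of the mouse. It had 4, 3 and 6 counts in LOXP and 2, 0 and 1 counts in STINGLKO, under the filter on low counts, and was not tested. The LOXP libraries held 13 counts in all and the STINGLKO libraries 3, a ratio of 4.79 per counted read with a 95% interval of 1.32 to 26.2 that covers counting error only. Of the 150-base windows of the *Hamp* transcript, 0% occurred in *Hamp2*, and the longest run shared by the pair was 87 bases. Adding the counts of *Hamp2* to those of *Hamp* left the log2 fold change at -0.97.

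*Id1* (chromosome 2 from 152578171 to 152579330), an inhibitor of DNA binding that BMP signaling induces, was at 23.7, 24.2 and 26.3 FPKM in LOXP and at 25.3, 25.2 and 21.6 in STINGLKO. The groups overlapped, with KO3 the lowest library. Its log2 fold change was -0.08 (95% interval -0.28 to 0.13, adjusted p = 0.584), an interval that does not reach the size of the change in *Hamp*, and it was 0.0038 without KO3.

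*Hfe* (chromosome 13 from 23886017 to 23894837) encodes the hemochromatosis protein, which couples transferrin saturation to hepcidin. It was at 9.01, 9.07 and 9.14 FPKM in LOXP and at 8.92, 10.1 and 9.75 in STINGLKO, with overlapping groups (log2 fold change 0.04, 95% interval -0.13 to 0.22, adjusted p = 0.717). Without KO2, its highest library, the value was -0.0028. *Tfr2* (chromosome 5 from 137568102 to 137585743), the hepatocyte's sensor of iron-loaded transferrin, was at 14.7, 16.9 and 16.5 FPKM in LOXP and at 12.5, 14.0 and 13.4 in STINGLKO. The groups did not overlap, although LOXP1 and KO2 lay close. *Tfr2* fell by 0.30 on the log2 scale (95% interval -0.48 to -0.12, adjusted p = 0.0261). The call was lost without LOXP2, LOXP3, KO1 or KO3, with adjusted p values of 0.0762, 0.0783, 0.0937 and 0.0790, and with no filter on low counts (adjusted p = 0.0516).

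*Trf* (chromosome 9 from 103081200 to 103107643) encodes transferrin, the protein that carries iron in plasma. It was at 1070, 1216 and 1079 FPKM in LOXP and at 738, 755 and 736 FPKM in STINGLKO. All STINGLKO libraries were below all LOXP libraries, and the spread within STINGLKO was small, with means of 1122 ± 81.8 and 743 ± 10.3 FPKM (SD, n = 3 each). The level was 1.55-fold lower in STINGLKO (log2 fold change -0.63, SE 0.06, adjusted p = 3.84e-04).

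*Tfrc* (chromosome 16 from 32427738 to 32451612) encodes transferrin receptor 1, which takes up iron-loaded transferrin. It was at 12.3, 10.1 and 9.10 FPKM in LOXP and at 15.1, 14.3 and 12.4 FPKM in STINGLKO. LOXP1 and KO3 were nearly equal, so that the groups were separate in FPKM and overlapped in normalized counts. The log2 fold change of 0.37 (95% interval 0.10 to 0.64) had an adjusted p of 0.0517 and was not called. It was called without LOXP1 (0.49, adjusted p = 0.0166), without KO3 (0.46, adjusted p = 0.0425) and by DESeq2 (0.37, adjusted p = 0.0105).

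*Slc40a1* (chromosome 1 from 45947228 to 45965683), which encodes ferroportin, was at 6.68, 5.24 and 5.90 FPKM in LOXP and at 5.13, 5.84 and 5.18 in STINGLKO. The groups overlapped, with LOXP1 the highest library. Its log2 fold change was -0.18 (95% interval -0.40 to 0.05, adjusted p = 0.235).

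*Fth1* (chromosome 19 from 9957962 to 9962462) encodes the heavy chain of ferritin, the subunit that oxidizes iron for storage. It was at 397, 362 and 398 FPKM in LOXP and at 490, 489 and 500.0 FPKM in STINGLKO. The STINGLKO libraries lay close together above all LOXP libraries, of which LOXP2 was the lowest. *Fth1* rose 1.25-fold (log2 fold change 0.32, SE 0.04, 95% interval 0.22 to 0.42, adjusted p = 0.00179). With 1 library left out the log2 fold change ran from 0.29 to 0.34, and the 3 pseudogenes named after *Fth1* together added at most 5 counts to a library.

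*Ftl1* (chromosome 7 from 45107368 to 45109308) encodes the light chain of ferritin, the subunit that helps iron mineralize. It was at 304, 625 and 635 FPKM in LOXP and at 336, 429 and 335 FPKM in STINGLKO. LOXP1 stood apart from the other LOXP libraries and was the lowest library of all, so the groups overlapped. The log2 fold change was -0.55 (95% interval -1.13 to 0.04, adjusted p = 0.163). Without LOXP1 it was -0.83 and was called (adjusted p = 0.00333).

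Other listed genes share the sequence or the place of *Ftl1*, so reads could be split among them. *Ftl1-ps1* (chromosome 13 from 74547813 to 74555465), named as a pseudogene and listed as protein coding, shared 377 of the 819 windows of 150 bases (46%) of the *Ftl1* transcript. Its counts were 15595, 15286 and 16105 in LOXP and 22345, 27224 and 24849 in STINGLKO. The groups did not overlap, and *Ftl1-ps1* rose (log2 fold change 0.48, adjusted p = 3.84e-04). *Gm56125*, a miRNA gene from 45107513 to 45107621 inside *Ftl1*, had 5467 and 5770 counts in LOXP2 and LOXP3 and 1 count in each of the other 4 libraries. The libraries in which it was counted are thus those in which *Ftl1* was high, and adding it to *Ftl1* produced no call. With *Ftl1* and its 3 named copies added up, the sums were 1964, 3135 and 3121 CPM (counts scaled to library size) in LOXP and 2493, 2849 and 2503 in STINGLKO. The summed log2 fold change was -0.07 (95% interval -0.43 to 0.30, adjusted p = 0.806), and -0.26 (adjusted p = 0.0296) without LOXP1. The level of *Ftl1*, and any change in it, is therefore uncertain. The part of read assignment in these values was not tested.

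**Figure D2:**
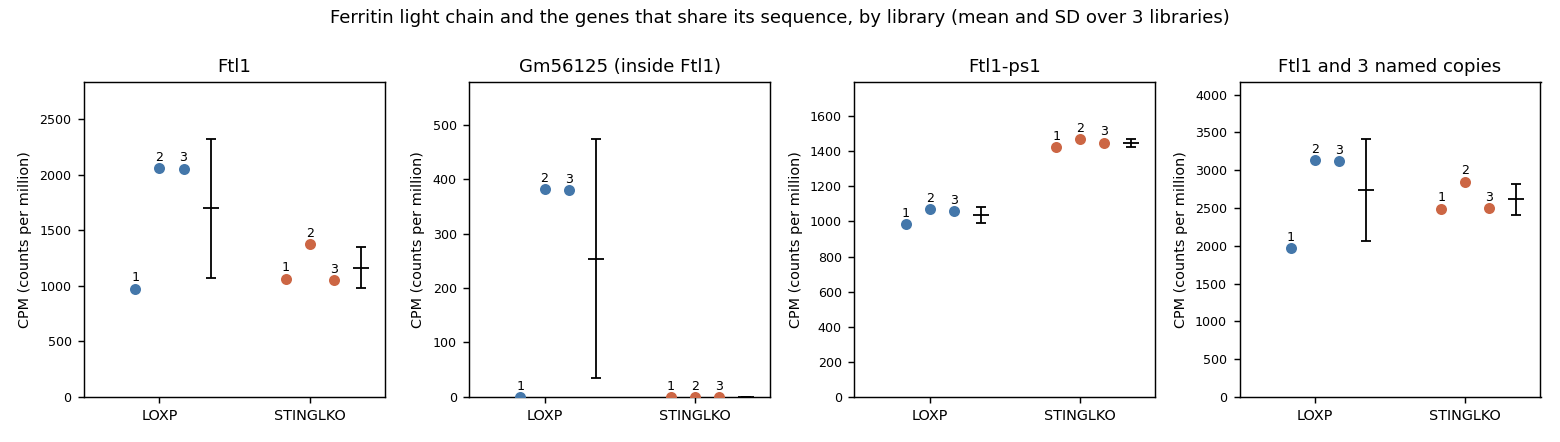
Counts scaled to library size (CPM, vertical axes, from 0) of Ftl1, of the miRNA gene inside it, of Ftl1-ps1, and of Ftl1 summed with 3 named copies, in each library. Points are libraries, numbered by replicate, with the mean and SD over 3 libraries beside them. LOXP2 and LOXP3 are near 2060 for Ftl1 and 380 for Gm56125, and LOXP1 lies with the STINGLKO libraries in both.

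In the deposited FPKM values, *Trf* ranked first of the set in LOXP. It was followed by *Ftl1* at 521 ± 189, *Fth1* at 386 ± 20.3 and *Hamp* at 342 ± 95.5 FPKM (SD, n = 3), whose ranges overlapped. *Id1* at 24.7 ± 1.40, *Tfr2* at 16.0 ± 1.17, *Tfrc* at 10.5 ± 1.64, *Hfe* at 9.07 ± 0.068 and *Slc40a1* at 5.94 ± 0.719 FPKM followed, and of these neighbors only *Tfrc* and *Hfe* overlapped. In STINGLKO the order by FPKM of the leading genes was *Trf*, *Fth1*, *Ftl1* and *Hamp*, with no overlap between neighbors in the values as listed. *Fth1* was at 493 ± 6.01, *Ftl1* at 366 ± 54.0 and *Hamp* at 179 ± 22.4 FPKM. *Tfrc* at 13.9 ± 1.35 and *Tfr2* at 13.3 ± 0.748 FPKM could not be ordered there. The place of *Ftl1* in both orders is uncertain, since reads could be split between it and *Ftl1-ps1*. Both orders also depend on the lengths behind the FPKM, which are not given. In LOXP, *Fth1* had a mean of 2681 CPM and *Hamp* of 143 CPM, while their FPKM overlapped. The *Fth1* transcript searched above was 929 bases long. The orders therefore do not rank the amounts of mRNA.

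**Figure D3:**
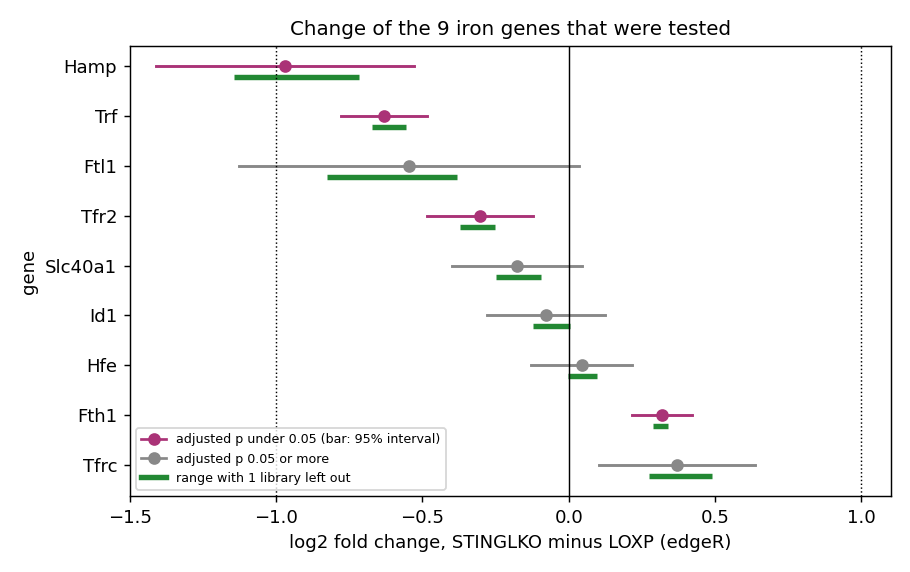
Log2 fold change of STINGLKO against LOXP (horizontal axis) for the 9 tested genes, with the 95% interval as a line and the range with 1 library left out as a bar below it. Filled purple marks an adjusted p under 0.05. Hamp, Trf and Tfr2 lie below 0 and Fth1 above it, Hamp lies close to the dotted line at -1, and the bars of Id1 and Hfe reach across 0.

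To place these genes among the rest of iron metabolism, 7 lists with 128 further genes were read in the same comparison. Of these, 126 were in the table and 116 were tested. At an adjusted p under 0.05, 23 (19.8%) fell and 7 (6.03%) rose, against the 11.6% and 11.5% of all genes, and the median log2 fold change was -0.07. Those shares of all genes are also the background for the count of each list below. Lists of 7 to 24 tested genes give only coarse shares.

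Among 21 tested genes of BMP and SMAD control of hepcidin, 4 fell and 1 rose. *Hjv*, hemojuvelin, the BMP co-receptor, was at 8.72, 8.97 and 10.2 FPKM in LOXP and 5.15, 4.89 and 4.32 in STINGLKO (log2 fold change -0.99, adjusted p = 7.48e-04). *Tmprss6*, the protease that cleaves hemojuvelin, was at 19.5, 27.4 and 29.3 FPKM in LOXP and 13.5, 14.8 and 14.1 in STINGLKO (log2 fold change -0.88, adjusted p = 0.00337), and is named after its values were seen. Thus a co-receptor that raises hepcidin and a protease that lowers it both fell. *Fgl1*, a secreted protein that antagonizes BMP signaling to hepcidin, was at 77.0 to 79.2 FPKM in LOXP and 45.9 to 47.7 in STINGLKO (log2 fold change -0.77). *Bmper*, which binds BMPs, was low throughout, at 0.599 to 0.815 and 0.169 to 0.223 FPKM (log2 fold change -1.80). *Bmp6*, the ligand that endothelial cells chiefly supply in liver, rose from 0.808, 1.53 and 0.996 FPKM in LOXP to 1.90, 2.43 and 2.72 in STINGLKO (log2 fold change 1.04, adjusted p = 0.0177). That call was lost without LOXP3, KO2 or KO3 (adjusted p 0.0623, 0.0579 and 0.0620). Of 10 tested markers of sinusoidal endothelial cells 1 fell and 9 were not called, with a summed FPKM of 33.8 to 36.9 in LOXP and 31.8 to 35.0 in STINGLKO, and the part of these cells in the *Bmp6* value was not tested.

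Of 7 tested targets of BMP and SMAD signaling, 1 fell. *Id3*, a relative of *Id1*, was at 40.6, 59.7 and 46.9 FPKM in LOXP and 28.1, 29.5 and 27.4 in STINGLKO, with no overlap (log2 fold change -0.83, SE 0.14, adjusted p = 0.00376). *Id2*, the next most abundant, had a log2 fold change of 0.29 (adjusted p = 0.281). *Atoh8*, a transcription factor, and the inhibitory *Smad6* and *Smad7* are named after their values were seen. *Atoh8* was lower in every STINGLKO library than in every LOXP library without being called (log2 fold change -0.70, adjusted p = 0.0529), and *Smad6* and *Smad7* had log2 fold changes of 0.12 (adjusted p = 0.695) and 0.34 (adjusted p = 0.115). Of the 7 genes, 3 had a value below 0 and 4 above it, with a median of 0.12.

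Of 14 tested genes of the interleukin-6, STAT3 and activin inputs, 5 fell and 9 were not called. *Hnf4a*, a hepatocyte transcription factor, *Creb3l3*, which activates *Hamp* under stress of the endoplasmic reticulum, and *Osmr*, the oncostatin M receptor, fell by 0.59, 0.59 and 0.60 on the log2 scale. *Jak2* and *Il6st*, which encodes the shared receptor chain gp130, fell by 0.34 and 0.44 and are named after their values were seen, and *Il6st* was not called without LOXP3 (adjusted p = 0.0641). *Il6* itself was at 0.0154, 0.482 and 0.0638 FPKM in LOXP and 0.0315, 0 and 0 in STINGLKO, too low to test. LOXP2 was the highest library for *Il6* as it was for *Hamp*, and a link between the 2 genes was not tested. *Il6ra*, a receptor chain for interleukin-6 that is named after its values were seen, was lowest in LOXP2 (4.72, 3.46 and 4.05 FPKM in LOXP).

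Of 16 tested genes of uptake, reduction and release, 4 fell and 12 were not called. *Cp*, ceruloplasmin, the plasma ferroxidase that works with ferroportin, was at 111, 152 and 130 FPKM in LOXP and 73.1, 68.0 and 62.9 in STINGLKO (log2 fold change -0.98, adjusted p = 8.02e-04). *Dnm2*, dynamin 2, which pinches off endocytic vesicles, fell by 0.51. *Steap4*, a metalloreductase, was at 17.6, 45.7 and 17.4 FPKM in LOXP and 10.5, 7.54 and 9.29 in STINGLKO. Its log2 fold change of -1.61 (adjusted p = 0.0162) rested in size on LOXP2, without which it was -0.97 (adjusted p = 0.00213), and was not called without KO2 (adjusted p = 0.0627) or KO3 (adjusted p = 0.0532). *Scara5*, a receptor for ferritin that is named after its values were seen, was under 0.3 FPKM in every library (log2 fold change -1.36) and lost its call without LOXP1, KO1 or KO3 (adjusted p 0.0587, 0.0679 and 0.0652).

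Of 14 tested genes of storage, chaperones and iron regulatory proteins, 3 fell and 1 rose. *Aco1*, the cytosolic aconitase that becomes iron regulatory protein 1 when it lacks its iron-sulfur cluster, was at 85.4, 88.8 and 86.6 FPKM in LOXP and 67.6, 68.8 and 70.3 in STINGLKO (log2 fold change -0.37, adjusted p = 0.00125). *Ireb2*, iron regulatory protein 2, named after its values were seen, had a log2 fold change of -0.03 (adjusted p = 0.811). *Pcbp1*, a chaperone that delivers iron to ferritin, rose with *Fth1*, from 203 to 205 FPKM in LOXP to 280.0 to 294 in STINGLKO (log2 fold change 0.45, adjusted p = 5.06e-04). *Bdh2* and *Epas1*, which encodes the hypoxia factor HIF-2 alpha, fell by 0.92 and 0.25, and each lost its call with some libraries left out, to an adjusted p of at most 0.0757 and 0.101.

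Of 20 tested genes of heme, 5 fell and 2 rose. *Hpx*, hemopexin, which carries heme in plasma, was at 3363, 4208 and 3835 FPKM in LOXP and 1531, 1560 and 1553 in STINGLKO (log2 fold change -1.33, adjusted p = 4.24e-05). *Hp*, haptoglobin, which binds free hemoglobin, was at 725, 1454 and 1131 FPKM in LOXP and 412, 367 and 439 in STINGLKO (log2 fold change -1.48, adjusted p = 0.00220), and like *Lrp1* (-0.24), the hemopexin receptor, is named after its values were seen. *Lrp1* lost its call without LOXP3, KO1 or KO2 (adjusted p 0.0530, 0.0708 and 0.0661). *Alas1* and *Alad*, the enzymes of the opening steps of heme synthesis, fell by 0.56 and 0.94. On the breakdown side *Hmox1*, heme oxygenase 1, rose from 40.6, 64.9 and 46.2 FPKM to 91.3, 104 and 91.5 (log2 fold change 0.88, adjusted p = 0.00653), and *Blvrb*, a biliverdin reductase, by 0.71 (adjusted p = 0.00371).

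Of 24 tested genes of iron-sulfur cluster assembly, 1 fell and 3 rose. *Nubpl*, an assembly factor for respiratory complex I, fell by 0.49, and *Nubp2*, *Hspa9* and *Iba57* rose by 0.39, 0.18 and 0.33 on the log2 scale. *Nubpl* was not called without KO2 (adjusted p = 0.0584), while *Hspa9* and *Iba57* each lost the call with some libraries left out, to an adjusted p of at most 0.0649 and 0.0755.

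**Figure D4:**
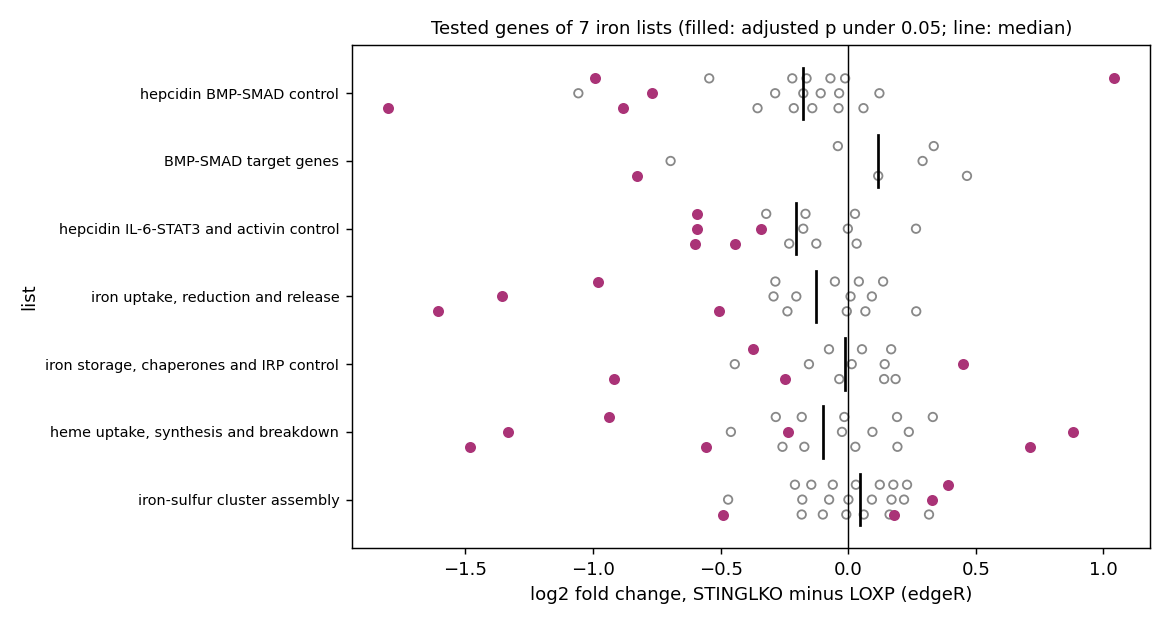
Log2 fold change of STINGLKO against LOXP (horizontal axis) for the tested genes of 7 iron lists (vertical axis). Each point is a gene, filled where the adjusted p is under 0.05, and the black line is the list's median. Filled points lie mostly left of 0 in the lists of hepcidin control, uptake and heme, and the medians run from -0.20 to 0.12.

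The genes whose pattern was most like that of *Hamp* over the 6 libraries were *Id3* (Pearson's r of log2 CPM 0.986), *Tsku* (0.984), *Rhoc* (0.984), *Arhgef40* (0.984) and *Ang* (0.983), of 11101 genes compared. All 5 were lower in every STINGLKO library than in every LOXP library. The libraries share the difference between groups and their depth, and 436 genes had an r above 0.9, so these values are a description only. Within the set, r with *Hamp* ran from -0.935 for *Fth1* to 0.949 for *Trf*.

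Markers of other cells were read beside these results, with the same 11.6% lower and 11.5% higher of all genes as background. Of 12 tested markers of macrophages and Kupffer cells 2 fell by edgeR, while DESeq2 called 2 lower and 1 higher. Values below 0 numbered 7 and values above it 5. The summed FPKM was 66.9 to 83.6 in LOXP and 53.2 to 62.8 in STINGLKO, of which *Cd68* alone was at a mean of 37.5 and 21.1. *Cd68* and *Lyz2* had log2 fold changes of -0.87 (adjusted p = 4.21e-04) and 0.18 (adjusted p = 0.353). *Cd5l*, named after its values were seen, was higher in every STINGLKO library than in every LOXP library. It was not called by edgeR (0.94, adjusted p = 0.0853). Stellate cell and fibroblast markers gave no call among 9 tested by edgeR or by DESeq2, and 1 had an unadjusted p under 0.05 in edgeR, with sums of 14.9 to 15.7 and 15.0 to 16.3 FPKM, and *Ecm1* and *Dcn* had log2 fold changes of -0.13 (adjusted p = 0.289) and 0.16 (adjusted p = 0.247). The endothelial *Cdh5* and *Lyve1* had values of 0.0051 (adjusted p = 0.977) and -0.20 (adjusted p = 0.331). Of 4 tested cholangiocyte markers, 3 fell, *Cldn4* and *Sox9* among them (-1.03 and -0.87). The 1 that rose was *Krt19* (0.82, adjusted p = 0.0479), named after its values were seen, and DESeq2 called none higher. The sums were 119 to 140 FPKM in LOXP and 61.8 to 72.8 in STINGLKO, of which *Cldn4* alone was at a mean of 111 and 55.8. Of 9 tested markers of proliferating cells 4 rose and 5 were not called, *Pcna* and *Mcm2* rising by 0.79 and 0.69 on the log2 scale, with sums of 25.1 to 31.1 in LOXP and 46.7 to 51.6 FPKM in STINGLKO. Erythroid markers summed to at most 3.38 FPKM in a library, with *Alas2* at a log2 fold change of 0.30 (adjusted p = 0.190) and *Hba-a1* too low to test. Neutrophil markers, *S100a8* and *S100a9* among them, had 12 counts in all, and all 9 lymphocyte markers were at 0 counts. The part of these shifts in the iron results was not tested.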

How the data were processed

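RNA from primary mouse hepatocytes (3 LOXP and 3 STINGLKO libraries) was sequenced as 150-base paired-end reads. The authors deposited 1 table with a read count per gene, not normalized, and with FPKM values. FPKM scales a count to a length and to the counted reads of the library, and the length used for each gene is not given. For some genes, *Fth1* and *Id1* among them, FPKM was lower than division by the length of the gene would give. Levels set side by side or summed across genes are therefore descriptions of the deposited values only. The submitters' processing notes name fastp, HISAT2, StringTie, edgeR and the build GRCm39 without versions. The counting tool, annotation and strand setting are not given in the sources used here.

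Groups came from the sample labels. Counts were filtered with filterByExpr (minimum count 10), scaled by TMM and compared by the two-sided quasi-likelihood test of edgeR 4.0.16 in R 4.3.3, with Benjamini-Hochberg adjustment over 14151 genes. DESeq2 1.42.0, limma 3.58.1 and the other alternatives are described in the closing section. The scripts were tested on simulated data. Sequences came from RefSeq promoters (GRCm38.p6) and GENCODE M21 transcripts, and figures from matplotlib 3.10.9.

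The text names all 10 genes of the set, *Sting1*, the 3 lower and 3 higher called genes of each list with the smallest p (where fewer than 2 passed, also the 2 most abundant), the 5 genes most correlated with *Hamp* and, for each cell type, its 2 most abundant markers. Most abundant means highest in mean FPKM. The 10 genes and all lists were chosen with earlier results of these data known.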

Additional observations from a re-analysis of the deposited data

How the results depend on the processing

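The alternatives were RLE size factors, DESeq2 (no adjusted p for 8 genes), no filter on low counts, a replicate block, limma-trend (log2 of FPKM + 1), leaving out single libraries and summing near-identical copies. Sums of *Ftl1* with *Gm56125*, and of its copies without LOXP1, were added after seeing the data. Of 104 values for the 9 tested genes, 91 kept their direction and side of the threshold, 5 lost a call, all of *Tfr2*, 6 gained one, and 2 turned direction with 1 library left out, *Hfe* (-0.0028 to 0.10) and *Id1* (-0.12 to 0.0038). *Hamp*, *Trf*, *Fth1* and *Slc40a1* kept both under every alternative. Lower genes of the set numbered 2 to 4 (4 without LOXP1, with *Ftl1*), and higher genes 2 with DESeq2 and 1 to 2 with 1 library left out (2 without LOXP1 or KO3, with *Tfrc*). Genes that met the study's 3 criteria numbered 0 to 1 with 1 library left out, 1 being *Hamp* without LOXP1, LOXP3, KO1 or KO2. *Sting1* ran from -0.26 to 0.11, with a turn in direction without KO3 or LOXP3. Of the 30 called list genes, 20 kept their call under every alternative, and called list genes numbered 19 to 25 lower and 5 to 9 higher. Over all genes, leaving out 1 library gave 1052 to 1515 lower and 922 to 1510 higher calls, against 1641 and 1633, with the fewest without KO2 and next KO1 (1088 lower, 1058 higher). The cause was not tested beyond the smaller number of samples.

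With the replicate block, 2 genes of the set were higher, since *Tfrc* was called (0.38, adjusted p = 0.00841), and no other call in the set changed. The deviations of same-numbered libraries from their group means correlated at 0.12, 0.083 and 0.013, so the numbers were not taken to pair the libraries, and LOXP3 correlated more with KO2 (0.046) than with KO3. Depth limits *Hamp2*, at 16 counts in all, and *Il6*.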

Other observations

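Some iron genes varied by more than 2-fold between libraries of 1 group. Among 112 iron genes whose mean FPKM passed 1 in LOXP or STINGLKO, 11 did so, and 4.69% of the 11102 genes compared did. *Slc48a1*, which encodes a heme transporter, was at 29.0, 74.6 and 28.3 FPKM in LOXP1 to LOXP3 and at 39.7, 48.4 and 46.2 in KO1 to KO3, with LOXP2 apart from its group. *Ncoa4*, the receptor that delivers ferritin to autophagosomes, was at 3.99, 3.88 and 4.85 FPKM in LOXP and at 1.56, 4.0 and 4.0 in STINGLKO, with KO1 apart. *Isca1*, an iron-sulfur cluster assembly protein, was at 1.88, 1.83 and 1.89 FPKM in LOXP and at 1.79, 0.701 and 1.68 in STINGLKO, with KO2 apart. *Smad5*, a transducer of BMP signals, was at 3.85, 3.74 and 1.54 FPKM in LOXP and at 2.42, 3.78 and 1.85 in STINGLKO, and its low libraries were in both groups. The other 7 were *Ftl1*, *Bmp2*, *Socs3*, *Il22ra1*, *Steap4*, *Hp* and *Flvcr1*. LOXP2 was the highest LOXP library for *Socs3* (2.68, 5.33 and 3.41 FPKM) and *Il22ra1* (1.96, 4.02 and 2.26 FPKM), as it was for *Hamp*, *Id3*, *Hp*, *Steap4* and *Il6*. It was the lowest LOXP library for *Il6ra* (4.72, 3.46 and 4.05 FPKM) and for *Fga*, a hepatocyte marker (118, 112 and 121 FPKM). All these genes were picked after their values were seen. The share of all genes that were highest in LOXP2 was not counted, and a link among these genes was not tested.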
